A study of Mus musculus with 10 samples.

Results

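Notch signalling between neighbouring cells was followed at the level of its transcripts in YFP-positive cells of the embryonic spinal cord, with and without the Onecut (OC) transcription factors. The genes described are 10 members of the pathway: the ligands Dll1, Dll3, Dll4, Jag1 and Jag2, the receptors Notch1 and Notch2, the glycosyltransferase Lfng, and the target genes Hes1 and Hes5. The choice was made by name and not by a rule on measured values, but with earlier results of these data known. They are 10 of the 48972 genes with deposited counts, and all 10 were among the 17835 genes that passed the filter on low counts. In the neural tube, Delta and Jagged ligands on one cell bind Notch receptors on the next. The receptor is then cleaved, and its intracellular part joins the DNA-binding protein RBPJ and switches on Hes genes, whose products repress proneural genes and keep the cell a progenitor. Cells that escape this signal express Delta ligands themselves and differentiate into neurons.

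RNA was sequenced from FACS-sorted YFP-positive cells of dissociated e10.5 mouse spinal cords, in 5 control and 5 cdKO samples. All samples carried Olig2-Cre, which is active in the progenitors of motor neurons (MNs), and the Rosa26R-YFP reporter that Cre switches on, so YFP marks descendants of Olig2-expressing cells, and these are not all MNs. Both transgenes were heterozygous (Olig2-Cre+/- and Rosa26R-YFP+/-) in every sample. Controls had the alleles Oc1+/Flox and Oc2+/Flox, so they were not wild type, since Cre could delete the floxed copy of each gene. The cdKO samples had Oc1-/Flox and Oc2-/Flox, in which a null allele replaced the wild-type one. The labels do not say whether each sample came from 1 embryo or from a pool, so the p-values measure the spread between these samples.

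The totals of deposited counts ranged from 63932395 to 107709534 in control samples and from 72315782 to 84249157 in cdKO samples. Exon 1 of Oc1 (chr9:74861921-74863401) received 63 to 210 counts in controls, while cdKO replicates 1 to 5 had 0, 17, 0, 3 and 0 (exact two-sided permutation test, p = 0.00794, the lowest value possible with these group sizes). Replicate 5 of cdKO stood apart: 198569 exon bins held a count, against 243970 to 271591 in the other 9 samples, and its counts lay toward the 3′ ends of genes. The label calls the cells spinal motor neurons. Markers of MNs were present, with summed CPM of the 9-gene list (deposited counts scaled to the TMM library size) from 539 to 779 in control and from 404 to 922 in cdKO samples, and so were progenitor markers, whose 13 genes summed to between 1230 and 1909 CPM in control and between 1452 and 2482 CPM in cdKO samples. Endothelial cells and presomitic mesoderm also use Notch ligands. The 9 endothelial markers summed to between 1.72 and 4.40 CPM in control and between 2.40 and 4.12 CPM in cdKO samples, led by Kdr. The 5 markers of presomitic mesoderm summed to between 0.461 and 0.783 CPM in control and between 0.489 and 3.15 CPM in cdKO samples, with Msgn1 and Mesp1 at 0 in all samples.

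Promoter windows from RefSeq (GRCm38.p6) reached from 250 bases before to 50 bases after each annotated start. They were found for 9 of the 10 genes, all but Hes1, and Dll1 had a window at each of its annotated starts. Both strands were searched for GTGGGAA, the letters of an RBPJ element, whose reverse complement is TTCCCAC, and for the palindrome CAGCTG, an E-box bound by proneural factors. These motifs do not overlap. GTGGGAA occurred in 6.38% of all 32851 windows and at least 2 times in 0.256% of them, whereas CAGCTG occurred in 16.3% and at least 2 times in 1.90%. Of the 10 windows of the Notch genes, 2 held GTGGGAA and 4 held CAGCTG. Shown are the windows of Hes5 and Lfng, which held the RBPJ letters, and of the ligands Dll1 (its upstream start) and Dll3, which held the E-box. Motifs are in capitals, read 5′ to 3′ on the strand of the gene. These windows were shown because they held a motif. The window of Jag1, which also held the E-box, and the other Dll1 window, which held neither motif, are not shown.
Hes5, plus strand, chr4:154960673-154960972: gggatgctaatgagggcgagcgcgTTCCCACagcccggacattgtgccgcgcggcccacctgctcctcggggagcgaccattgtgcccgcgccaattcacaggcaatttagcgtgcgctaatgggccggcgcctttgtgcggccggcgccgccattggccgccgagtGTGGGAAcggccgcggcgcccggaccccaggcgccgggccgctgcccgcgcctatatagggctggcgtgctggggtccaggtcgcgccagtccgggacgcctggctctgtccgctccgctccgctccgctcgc
Lfng, plus strand, chr5:140607091-140607390: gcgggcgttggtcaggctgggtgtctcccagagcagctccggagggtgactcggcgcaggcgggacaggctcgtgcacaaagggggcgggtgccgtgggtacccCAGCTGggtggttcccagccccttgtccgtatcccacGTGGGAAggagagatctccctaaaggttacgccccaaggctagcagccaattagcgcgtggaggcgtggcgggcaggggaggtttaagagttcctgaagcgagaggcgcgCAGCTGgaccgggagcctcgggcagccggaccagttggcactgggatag
Dll1, minus strand, chr17:15376883-15377182: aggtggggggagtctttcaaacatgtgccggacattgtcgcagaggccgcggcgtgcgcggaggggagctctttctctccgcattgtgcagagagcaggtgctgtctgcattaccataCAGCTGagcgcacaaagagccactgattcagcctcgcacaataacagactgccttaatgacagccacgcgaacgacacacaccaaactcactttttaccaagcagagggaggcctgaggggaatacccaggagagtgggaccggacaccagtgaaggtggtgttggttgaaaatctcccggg
Dll3, minus strand, chr7:28301736-28302035: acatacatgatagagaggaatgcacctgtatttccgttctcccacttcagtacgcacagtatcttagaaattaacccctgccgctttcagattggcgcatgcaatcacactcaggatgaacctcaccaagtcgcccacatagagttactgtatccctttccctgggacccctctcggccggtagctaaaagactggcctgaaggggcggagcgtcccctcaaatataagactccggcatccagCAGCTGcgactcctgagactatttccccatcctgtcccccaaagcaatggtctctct
In the Hes5 window the motif began at position -226 on the minus strand and at position -83 on the plus strand, counted from the annotated start. In the Lfng window it began at -109, and the E-box at -146 and at 1. The E-box began at -132 in the Dll1 window, at -7 in the Dll3 window, and at -82 in that of Jag1. The windows of Dll4, Jag2, Notch1 and Notch2 held neither motif. A match of letters is a description of the window only, since no binding was measured here.

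The members differed widely in level. Per kilobase of exon, Hes5 had the highest control mean, 843 ± 365 CPM per kb (SD, n = 5), above 99.9% of the genes tested. Hes1 followed with 73.1 ± 44.5 CPM per kb (SD, n = 5), then Dll3 with 66.4 ± 22.8 (SD, n = 5) and Dll1 with 33.8 ± 11.5 (SD, n = 5). The spreads of Hes1 and Dll3 overlapped. Lfng averaged 18.9 ± 9.33 CPM per kb (SD, n = 5), Jag1 5.71 ± 2.86 (SD, n = 5) and Notch1 3.75 ± 1.47 (SD, n = 5). Jag2 at 0.784, Dll4 at 0.499 and Notch2 at 0.420 CPM per kb lay lowest, with overlapping spreads, and Notch2 was above only 22.8% of the genes tested. Among the members, Dll3 and Dll1 were the highest of the Delta-like ligands, Jag1 was the higher Jagged ligand and Notch1 the higher receptor. A read was counted on every exon bin it overlapped, which favours genes cut into many bins, and the order given is that of these sums. On the longest bin of each gene alone, the control mean of Dll1 (29.5 CPM per kb) was above that of Dll3 (7.45). There Notch2 (0.176) was also above Notch1 (0.0805), whose longest bin held 3 to 58 counts per sample. Of the Hes5 counts, 86.0% lay on bins shared with the antisense gene Gm20421.

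No member passed the test between control and cdKO cells. By edgeR's quasi-likelihood test, with p adjusted after Benjamini-Hochberg over 17835 genes, 0 of the 10 had an adjusted p under 0.05, and 0 had an unadjusted p under 0.05. The background was the same for the adjusted p, with 0 genes (0%) of all tested, whereas 4.98% of all genes had an unadjusted p under 0.05 (4.17% higher and 0.813% lower in cdKO samples). Oc1 and Oc3 did not pass this test either. Oc3, with a control mean of 0.489 CPM, was lower in every cdKO sample than in every control. Its log2 fold change was -5.08 ± 0.76 (standard error), with an adjusted p of 0.111 (edgeR). Oc1, over all its exon bins, had -1.11 ± 0.46 (standard error) and an adjusted p of 0.938 (edgeR). An adjusted p above 0.05 in this test thus does not show that a member was unchanged. Control and cdKO values overlapped for all 10 members, and over all genes tested 0.179% were higher and 0.224% lower in cdKO samples without overlap. The log2 fold change was below 0 for 9 of the 10 members, with Dll3 the exception, and their median was -0.39. Over all genes tested, 51.8% of the log2 fold changes were below 0 and the median was -0.02. The members do not vary independently of each other, so this count was not tested. In bulk RNA, fewer cells of a type and less RNA per cell cannot be told apart.

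**Figure D1:**
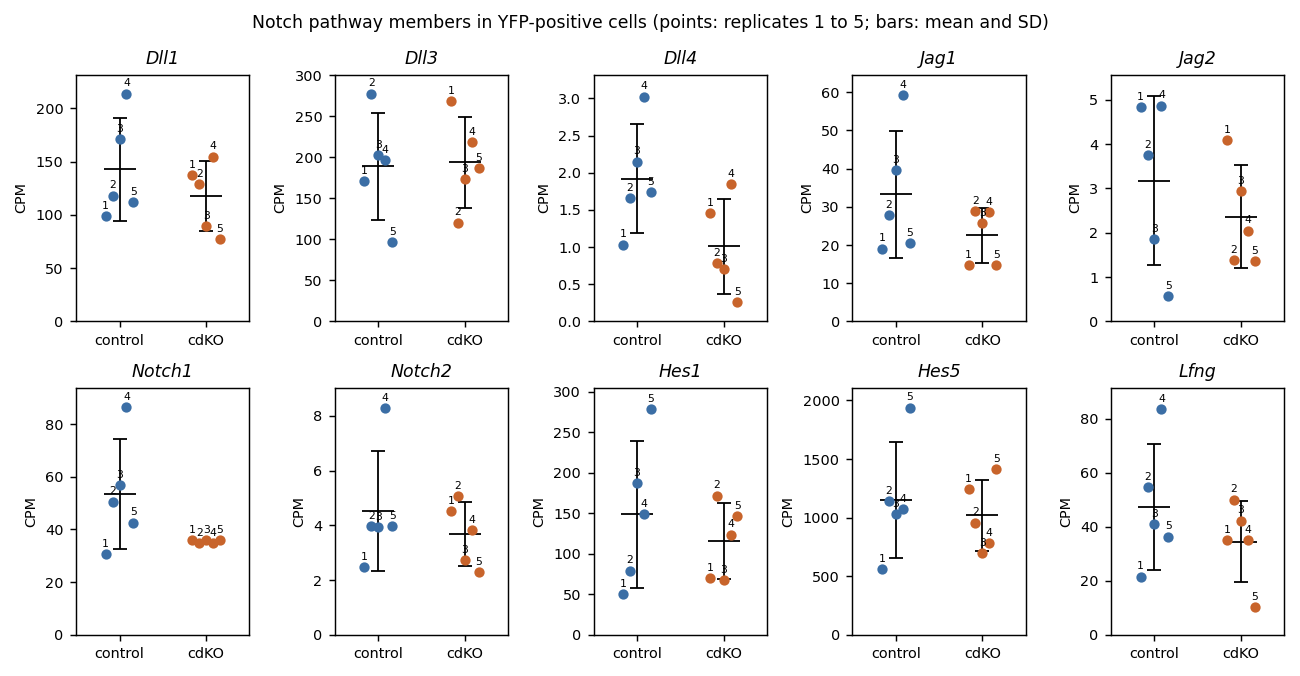
TMM-scaled CPM (linear axis from 0) of the 10 members in control and cdKO samples. Points are single samples numbered by replicate, and bars give the mean and SD of 5 samples. The groups overlap in every panel, control replicate 4 is highest for Notch2 at 8.30 CPM, and the cdKO samples lie between 34.8 and 36.0 CPM for Notch1.

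Among the ligands, Dll1, the main Delta ligand of ventral progenitors leaving the cycle, was found at chr17:15367354-15376872. Its CPM were 98.8, 118, 171, 214 and 112 in control replicates 1 to 5 and 137, 129, 89.3, 155 and 77.6 in cdKO replicates 1 to 5. The highest value was a control and the lowest a cdKO sample, and the remaining values were interspersed. This gave a log2 fold change of -0.28 ± 0.30 (standard error, here and for the other genes; edgeR, adjusted p = 0.997). Of the Dll1 counts, 11.2% fell on bins shared with the overlapping gene A930024N18Rik. Without those bins the log2 fold change was -0.26, and without control replicate 4, the highest sample, it was -0.11.

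Dll3 (chr7:28293553-28302238) encodes a divergent Delta protein that acts inside the cell that makes it. It had 171, 278, 203, 197 and 97.0 CPM in control samples and 269, 121, 174, 219 and 187 CPM in cdKO samples. Control replicate 5 was the lowest and control replicate 2 the highest of all, so the cdKO values lay within the control range. The means were 189 ± 65.0 and 194 ± 54.9 CPM (SD, n = 5 each), or 0.03 ± 0.32 as the log2 fold change (edgeR, adjusted p = 0.998). Its sign turned under several settings, among them scaling by library size only (-0.11).

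Dll4 (chr2:119325784-119335962), a ligand of V2 progenitors and of endothelium, was scarce. It had 1.03, 1.66, 2.15, 3.02 and 1.74 CPM in control samples and 1.46, 0.785, 0.700, 1.85 and 0.256 CPM in cdKO samples. The cdKO values of replicates 2, 3 and 5 were below every control value, while those of replicates 1 and 4 were within the control range. Its log2 fold change of -0.92 was the most negative of the members, at ± 0.51 (edgeR, adjusted p = 0.944). On log2(CPM + 0.5), exact permutation of the labels gave a two-sided p of 0.0635. Without cdKO replicate 5, where 92.3% of the Dll4 counts lay on the last exon bin, the log2 fold change was -0.67. The summed endothelial markers were given above. Their part in the Dll4 values was not tested.

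Of the Jagged ligands, Jag1 (chr2:137081456-137116644) had 19.1, 27.8, 39.6, 59.3 and 20.6 CPM in control samples and 14.8, 28.9, 25.7, 28.6 and 14.7 CPM in cdKO samples. Control replicates 3 and 4 exceeded every cdKO sample, and the other 3 controls fell among them. In the edgeR fit Jag1 was at -0.56 ± 0.37 on the log2 scale (adjusted p = 0.976), and at -0.28 without control replicate 4. Jag2 (chr12:112907819-112929776) had 4.84, 3.76, 1.85, 4.87 and 0.576 CPM in control samples and 4.09, 1.39, 2.95, 2.05 and 1.36 CPM in cdKO samples. Both extremes were controls, and the fitted log2 fold change was -0.42 ± 0.53 (edgeR, adjusted p = 0.997). On the last 1000 exonic bases alone it was -0.01, and with each sample left out it ranged from -0.72 to -0.22.

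The receptor Notch1 (chr2:26457903-26516663) came nearest to a difference. Its CPM were 30.6, 50.6, 56.8, 86.5 and 42.6 in control samples and 35.9, 34.9, 36.0, 34.8 and 35.9 in cdKO samples. Control replicates 2 to 5 lay above all cdKO samples and control replicate 1 lay below them. The SD was 0.604 CPM among cdKO samples, against 20.9 CPM among controls. Its log2 fold change was -0.59 ± 0.29, with an unadjusted p of 0.0616 in edgeR's quasi-likelihood test and 0.938 after Benjamini-Hochberg adjustment. Without control replicate 4 the log2 fold change was -0.37. Exact permutation of the labels gave an unadjusted two-sided p of 0.0476 for Notch1, which was 1 of 10 genes examined in this way. Coverage was unequal: in cdKO replicate 5, 88.1% of the Notch1 counts fell on the last exon bin, in control replicate 5 52.3%, and in the other 8 samples 10.7% to 21.2%. The cdKO replicates 1 to 4, whose shares were 10.9% to 17.6%, were as close to each other in level as to cdKO replicate 5. Of the Notch1 counts, 20.8% were on the last exon bin, which is shared with 0610009E02Rik and Gm13568. Without it the log2 fold change was -0.77 ± 0.50 (edgeR, unadjusted p = 0.144). Leaving it out also removed the 88.1% of the cdKO replicate 5 counts given above, so overlap and coverage cannot be told apart here.

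Notch2 (chr3:98013527-98150361), the second receptor, had 2.47, 3.98, 3.93, 8.30 and 3.96 CPM in control samples and 4.51, 5.08, 2.72, 3.83 and 2.30 CPM in cdKO samples. Control replicate 4 was far above the rest, and the other 9 samples overlapped. In the edgeR fit -0.30 ± 0.38 on the log2 scale (adjusted p = 0.997) became 0.03 without that sample. Lfng (chr5:140607320-140615545), a fringe enzyme that adds sugars to Notch and thereby alters which ligands it answers, had 21.5, 54.7, 40.9, 83.4 and 36.3 CPM in control samples and 34.9, 50.02, 42.3, 35.1 and 10.2 CPM in cdKO samples. The extremes were control replicate 4 and cdKO replicate 5. For Lfng the log2 fold change was -0.46 ± 0.43 (edgeR, adjusted p = 0.997), and -0.18 without control replicate 4 and -0.22 without cdKO replicate 5.

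Control replicate 4, the sample with the fewest counts in total, gave the highest value of all samples for Dll1, Dll4, Jag1, Jag2, Notch1, Notch2 and Lfng. Without it, the median log2 fold change of the members was -0.23, with 8 of 10 below 0, and the median over all genes was -0.02.

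The target Hes1 (chr16:30064384-30067796), a repressor present in progenitors of many tissues, had 50.6, 79.2, 187, 149 and 279 CPM in control samples and 69.7, 172, 67.5, 124 and 147 CPM in cdKO samples. The lowest and the highest values were both controls. Its means of 149 ± 90.7 and 116 ± 46.4 CPM (SD, n = 5 each) corresponded to -0.36 ± 0.44 on the log2 scale (edgeR, adjusted p = 0.997), and without control replicate 5, the highest sample, the value was -0.01. Hes5 (chr4:154960923-154962371), the Notch effector most typical of neural progenitors, had 559, 1144, 1033, 1070.1 and 1938 CPM in control samples and 1240.4, 958, 698, 781 and 1414 CPM in cdKO samples. Again the extremes were controls, replicate 1 low and replicate 5 high, as for Hes1. On the log2 scale the difference was -0.17 ± 0.34 (edgeR, adjusted p = 0.997), and without control replicate 5 it was 0.10. Since 86.0% of the Hes5 counts lay on bins shared with the antisense gene Gm20421 and strand was not used in counting, reads of the pair cannot be told apart. The remaining bins gave -0.24.

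**Figure D2:**
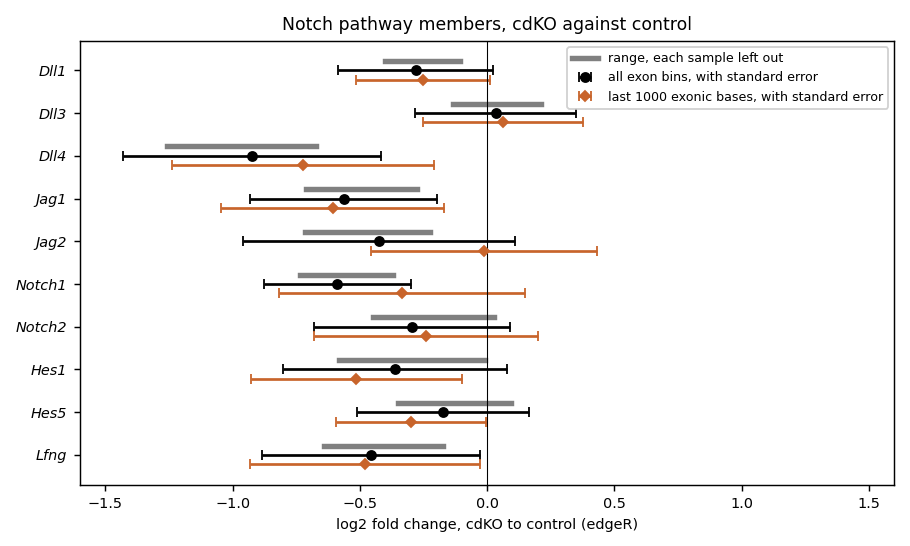
Log2 fold changes of the 10 members, cdKO to control, from edgeR. Circles are the values over all exon bins and diamonds those over the last 1000 exonic bases, each with its standard error, and grey lines span the values with each of the 10 samples left out in turn. All members but Dll3 lie left of 0 over all exon bins, between -0.92 and -0.17.

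Counts ran unevenly along the longer transcripts in both replicates numbered 5. For Dll1, 4.04% of the counts of cdKO replicate 5 and 29.1% of those of control replicate 5 lay in the 5′ part (bins centred before the middle of the exonic length), against 42.3% to 46.3% in the other 8 samples. For Jag1 the shares were 0.941%, 17.4% and 61.2% to 64.3%, and for Notch1 1.15%, 5.41% and 24.9% to 39.4%. Dll3 lost its 5′ part mainly in cdKO replicate 5, with 19.8% against 46.5% in control replicate 5 and 48.4% to 50.2% in the others. The shorter transcripts of Hes1, Hes5 and Lfng changed less but were not unaffected. In cdKO replicate 5, Hes1 had 64.4% and Hes5 47.4% of its counts there, against 53.6% to 57.3% and 48.4% to 51.0% in the 8 samples. Lfng had 57.9%, against 64.3% to 67.3% in the 8 samples. Levels of Jag1 and Notch1 summed over all bins are thus not on the same footing in these libraries as in the rest. On the last 1000 exonic bases, Notch1 had 51.6 CPM in cdKO replicate 5 and 50.4 CPM in control replicate 5. The other 8 samples had 10.3 to 24.5 CPM, so this was the opposite of a shortfall. Such values cover every whole bin that reaches into those bases. For Notch1 that was the last exon bin alone (chr2:26457903-26460976), the one shared with 0610009E02Rik and Gm13568. On these bases the log2 fold change of Notch1 was -0.34 over all samples, -0.997 without cdKO replicate 5 and -0.62 without both replicates numbered 5. That of Jag1 was -0.61, -0.95 and -0.62. The settings that combine the last bases with left-out samples were chosen after seeing the data, and no member had an adjusted p under 0.05 in any of them (edgeR).

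**Figure D3:**
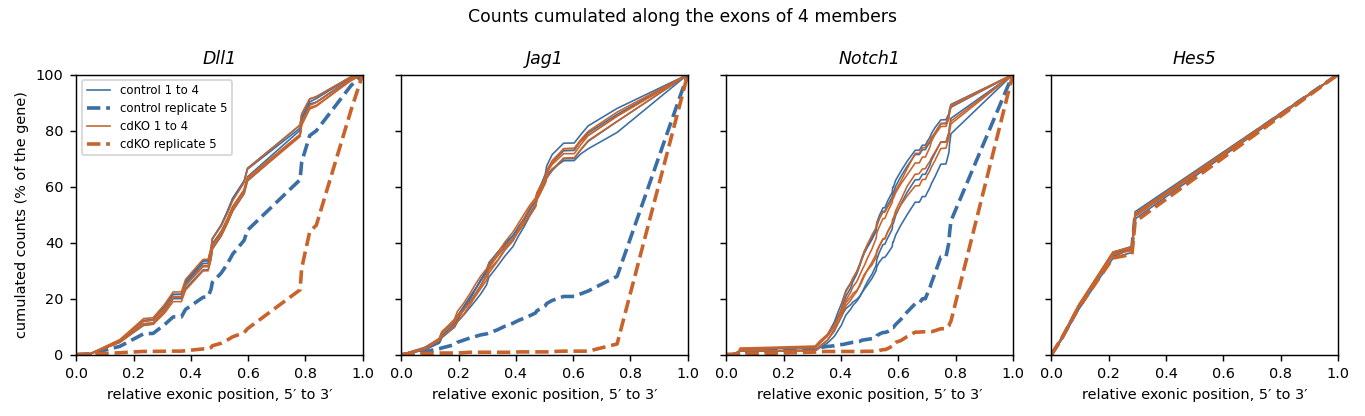
Counts of each sample cumulated along the exons of Dll1, Jag1, Notch1 and Hes5, in percent of the gene's counts, against relative exonic position from 5′ (0) to 3′ (1). Thin lines are replicates 1 to 4 and thick dashed lines replicates 5 of each genotype. In cdKO replicate 5 the curves of Dll1, Jag1 and Notch1 stay near 0 until late, while the 10 curves of Hes5 coincide.

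Of 44 further genes of the pathway, 42 passed the filter, and Hes3 and Hes7 did not. In edgeR's test 0 of the 42 had an adjusted p under 0.05 and 1 had an unadjusted p under 0.05, against 4.98% of all genes. Their log2 fold changes were above 0 for 15 and below 0 for 27, with a median of -0.13. Psenen, a subunit of the gamma-secretase that cleaves Notch, was that gene, with a log2 fold change of 1.24 ± 0.54 (edgeR, adjusted p = 0.938). Its cdKO samples had 192, 96.8, 143, 97.8 and 774 CPM against 76.1 to 143 CPM in control samples, and without cdKO replicate 5 the log2 fold change was 0.27. The next by p were Maml3, a coactivator of the RBPJ complex (-0.50 ± 0.30), Dlk1, a non-canonical ligand (0.72 ± 0.44), Maml2, a further coactivator (-0.74 ± 0.50), and Spen, a corepressor that binds RBPJ (-0.50 ± 0.34), with adjusted p between 0.961 and 0.983 (edgeR).

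Values for core components outside the 10 members follow the same order of roles. Rbpj, the DNA-binding partner of Notch, averaged 38.2 ± 9.86 CPM in control and 33.8 ± 11.8 CPM in cdKO samples (SD, n = 5 each). Notch3, a receptor, averaged 6.71 ± 3.18 and 7.65 ± 2.00 CPM, and the receptor Notch4, named after its values were seen, 17.6 ± 1.046 and 16.1 ± 2.77 CPM. Mib1, the ubiquitin ligase that activates Delta ligands in the sending cell, averaged 29.6 ± 10.7 and 24.99 ± 15.1 CPM. Mfng, the fringe enzyme with the most counts, averaged 174 ± 70.7 and 163 ± 52.4 CPM, and Rfng 35.9 ± 4.32 and 30.5 ± 16.2 CPM. Among targets and their companions, Hey1 averaged 205 ± 29.4 and 158 ± 65.8 CPM, with a log2 fold change of -0.38 ± 0.31 (standard error), and Hes6, which antagonizes Hes1 in differentiating cells, 279 ± 66.3 and 356 ± 139 CPM, with a log2 fold change of 0.35 ± 0.31 (standard error). Nrarp, a feedback inhibitor of Notch, averaged 359 ± 119 and 300 ± 103 CPM, and all its counts lay on a bin shared with Gm38287. The adjusted p was 0.997 or more for each gene of this paragraph (edgeR).

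Because Notch targets mark progenitors, the members were set against the progenitor content of each sample, taken as the mean log2(CPM + 0.5) of 13 progenitor markers, none of them a Notch pathway gene. This score was 5.27 ± 0.09 in control and 5.19 ± 0.23 in cdKO samples (SD, n = 5 each). It covered a narrow range, from 4.85 in cdKO replicate 1 to 5.43 in cdKO replicate 5. In cdKO replicate 5, Sox1, Sox2, Sox3, Nes, Vim, Fabp7 and Msi1 were the highest of all samples, but Olig2 (26.3 CPM) and Prom1 (53.3 CPM) the lowest. Its score of cell cycle genes, computed in the same way, was also the lowest, 6.48 against 7.10 to 8.12. Its place on the progenitor score is thus uncertain. No member passed the test of a relation to the progenitor score. After adjustment over 17817 genes, 0 of 10 members and 0% of the genes in either direction had a permutation p under 0.05. Without adjustment, 0 of 10 members did, against 4.60% of all genes with a positive and 4.48% with a negative r. Hes1 had the highest correlation (Pearson r = 0.449, permutation p = 0.196, adjusted p = 0.620; Spearman rho = 0.467, permutation p = 0.177, adjusted p = 0.762, n = 10), followed by Jag1 (r = 0.404, permutation p = 0.246, adjusted p = 0.652; rho = 0.358, permutation p = 0.314, adjusted p = 0.814). Without cdKO replicates 1 and 3, the 2 samples farthest from the median score, r was 0.069 for Hes1 and 0.087 for Jag1. Other left-out samples raised it. Hes1 had r = 0.641 without control replicate 5 (permutation p = 0.0498, adjusted p = 0.311), and Jag1 had r = 0.711 without cdKO replicate 5 (permutation p = 0.0362, adjusted p = 0.218). On the last 1000 exonic bases Jag1 had r = 0.643 (permutation p = 0.0361, adjusted p = 0.332), and with scaling by library size only r = 0.833 (permutation p = 0.00257, adjusted p = 0.067). The values of both genes thus depend on single samples, and that of Jag1 also on scaling and coverage. For Notch1 r was 0.259 (permutation p = 0.445, adjusted p = 0.779) and rho 0.188 (permutation p = 0.605, adjusted p = 0.895). The other members had r between -0.269 for Jag2 and 0.083 for Dll1 and unadjusted permutation p of at least 0.458. The rho of these members lay at or above -0.236, with unadjusted permutation p of at least 0.512. Of all 10 members, 4 had a positive and 6 a negative r, with a median of -0.06 beside 0.05 over all genes. Within genotypes, as deviations from the genotype means, r was 0.430 for Hes1, 0.336 for Jag1 and 0.136 for Notch1, with adjusted permutation p of at least 0.697.

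The samples differed more in neuronal than in progenitor transcripts. The score of 10 neuron markers, computed in the same way, ranged from 6.26 in control replicate 5 to 8.30 in cdKO replicate 5. With the progenitor minus the neuron score as the content of a sample, Hes1 had r = 0.741 (permutation p = 0.0142, adjusted p = 0.213) and rho = 0.806 (permutation p = 0.00693, adjusted p = 0.196, n = 10). Hes5, at r = -0.079 with the progenitor score alone, had r = 0.526 (permutation p = 0.119, adjusted p = 0.490) and rho = 0.297 (permutation p = 0.408, adjusted p = 0.785). The ligands Jag2 and Dll3 ran the other way, Jag2 with r = -0.639 (permutation p = 0.0476, adjusted p = 0.342) and rho = -0.467 (permutation p = 0.180, adjusted p = 0.610), and Dll3 with r = -0.596 (permutation p = 0.0683, adjusted p = 0.399) and rho = -0.20 (permutation p = 0.585, adjusted p = 0.876). The other 6 members had r between 0.263 for Notch1 and 0.481 for Lfng. No member passed adjustment over 17807 genes, and 0% of all genes did. Without adjustment, 6.93% of all genes had a positive and 7.37% a negative r with a permutation p under 0.05. Without control replicate 5 and cdKO replicate 2, the 2 samples farthest from the median of this score, r was 0.496 for Hes1, 0.271 for Hes5, -0.069 for Jag2 and 0.463 for Dll3, so the values of Jag2 and Dll3 rest on those samples. For the other 6 members r was higher without them, at 0.624 for Dll1, 0.685 for Dll4, 0.718 for Jag1, 0.689 for Notch1, 0.539 for Notch2 and 0.694 for Lfng, with unadjusted permutation p of 0.0448 for Jag1, 0.0486 for Lfng and at least 0.0557 for the rest. Within genotypes, r was 0.739 for Hes1 (permutation p = 0.0263), 0.518 for Hes5, -0.725 for Jag2 (permutation p = 0.0354) and -0.603 for Dll3, none of them adjusted. The share of all genes with such a p was computed neither within genotypes nor without the 2 farthest samples, so these p-values have no background beside them. Control replicate 5, with the fewest neuronal transcripts, had the highest Hes1 and Hes5 and the lowest Dll3 and Jag2 of all samples. Control replicate 1, with many, had the lowest Hes1 and Hes5. In cdKO replicate 5, the most neuronal by its score (8.30, against 8.27 in control replicate 1), Hes5 was nonetheless the second highest at 1414 CPM. Of the neuron markers, Stmn2, Gap43, Elavl3 and Dcx were the highest of all samples there. The other neuron markers, such as Snap25 (28.6 CPM) and Nefl (703 CPM), lay within the range of the other samples. Both ends of the neuron score were replicates numbered 5, with uneven coverage, so their places on it are also uncertain.

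**Figure D4:**
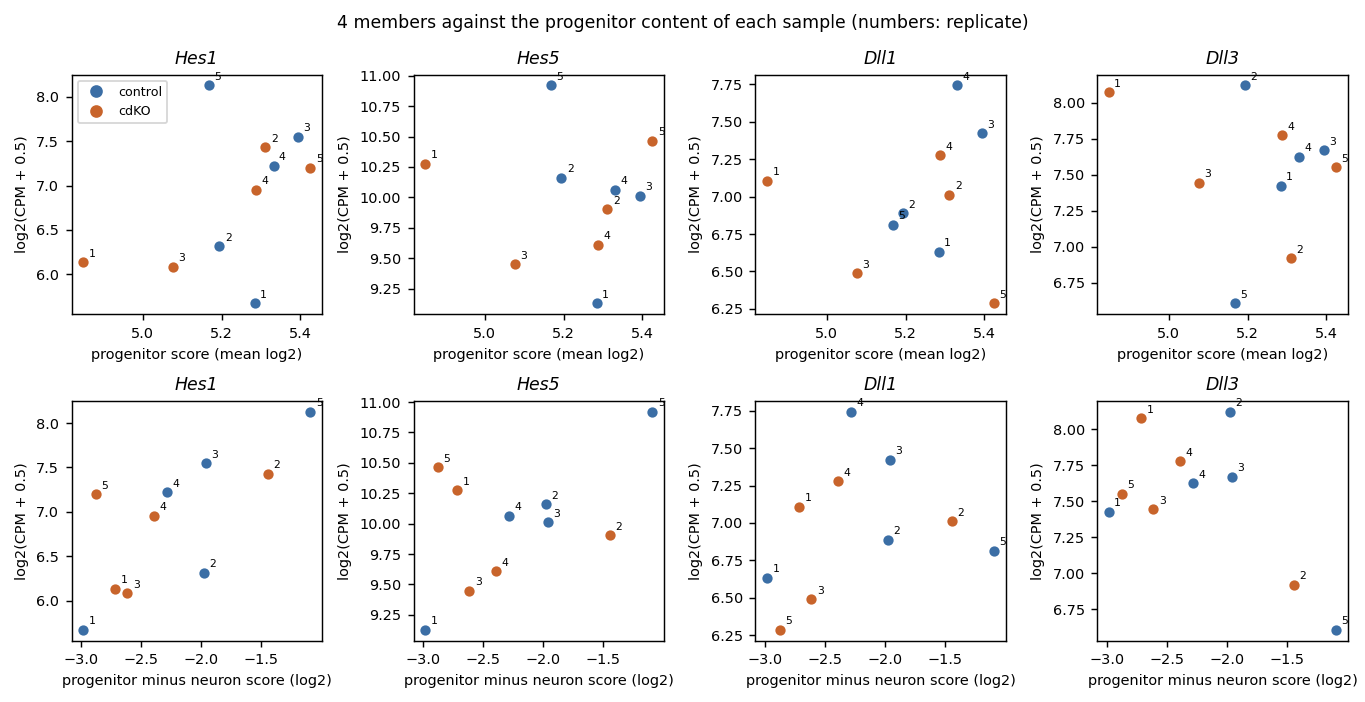
Log2(CPM + 0.5) of Hes1, Hes5, Dll1 and Dll3 in each sample against the progenitor score (upper row, mean log2 of 13 markers) and against the progenitor score minus the neuron score (lower row, log2 units). Points are samples numbered by replicate and coloured by genotype. Hes1 has r of 0.741 and Dll3 r of -0.596 on the lower axis, where control replicate 5 lies far to the right, and neither passed adjustment over all genes.

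Across the 10 samples some members varied side by side. Among the members, Dll1 was most like Dll4 (r of log2 values 0.88) and Notch2 (0.86). Lfng was most like Notch2 (0.81) and Jag1 like Notch1 (0.80), all of them high in control replicate 4. Hes1 and Hes5 varied together (0.67), and Hes1 opposite to Jag2 (-0.80) and Dll3 (-0.57). Dll3 and Jag2 had r of 0.69. The r of Dll1 with Dll4 was above that of Dll1 with 99.8% of all other genes tested. The same share was 98.3% for Jag1 with Notch1, 97.1% for Lfng with Notch2, 94.3% for Hes1 with Hes5 and 90.8% for Jag2 with Dll3. It was 11.6% for Hes1 with Dll3 and 2.02% for Hes1 with Jag2, so many genes outside the pathway were as alike or as opposed. These values are descriptions over 10 samples that share scaling, depth and the coverage described above. Among all 13530 genes with a mean of at least 1 CPM, members left out, the pattern of Hes5 was most like that of Gm20421 (0.999), with which it shares reads, then Pfas (0.938) and Ubald1 (0.931). That of Hes1 was most like A730089K16Rik (0.943), Ccnd2 (0.918), a cyclin of dividing progenitors, and Atxn7 (0.916). For Notch1 the nearest were H2-K1 (0.866), Mapk1ip1l (0.858) and Pogz (0.856), and for Notch2 Zfp592 (0.973), Ranbp10 (0.949) and Capn15 (0.926). The ligand Dll1 was nearest to Fan1 (0.954), Steap2 (0.933) and Kcng1 (0.929), Dll3 to Myh14 (0.952), Cbx6 (0.950) and Fuz (0.935), and Dll4 to Myo9b (0.936), Tpp1 (0.932) and Ccnjl (0.930). Jag1 was nearest to Utrn (0.958), Wwtr1 (0.949) and Palld (0.946), Jag2 to Masp1 (0.965), Col26a1 (0.958) and Ttyh1 (0.957), and Lfng to Slx4 (0.970), Gpc4 (0.957) and Med23 (0.951).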

How the data were processed

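RNA-seq of YFP-positive cells was analysed in 5 control and 5 cdKO samples, grouped by their labels. The authors deposited, for each sample, raw whole-number counts per exon bin, without normalization. The submitters' processing notes name bcl2fastq 2.17, Trimmomatic 0.36, STAR 2.5.2b, Subread 1.5.2, DESeq2 and the build GRCm38, and reads had been counted without strand, once on each bin they touched. Bins were given to genes of GENCODE M21 by position (49384 of 49644 gene identifiers were found), leaving out 3988 bins (1.17% of the counts) of no single gene.

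Sums per gene were filtered with filterByExpr (minimum count 10), scaled by TMM and compared with edgeR 4.0.16 (quasi-likelihood test, R 4.3.3, Benjamini-Hochberg threshold 0.05). A floor of 3 counts equals 0.0288 to 0.0591 CPM and covers counting error only. Exact permutation tests used all 252 arrangements of log2(CPM + 0.5), and correlations used 100000 permutations over 17817 gene symbols. Alternatives were DESeq2 1.42.0, limma-voom (limma 3.58.1), other scalings, filters, bins and left-out samples. Scripts were tested on simulated counts. No pair of libraries was a duplicate.

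The members and lists were chosen with earlier results of these data known. Named are all members, of the other pathway genes the 5 with the smallest p and 9 core components (Dlk1 being in both), the highest gene of lists of other cells where a result touches them, and the 3 genes most like each member.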

Additional observations from a re-analysis of the deposited data

Results flagged for a closer look

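Notch2 in control replicate 4 stood apart from the other control samples, at 8.30 CPM against 3.98 CPM in the nearest and 2.47 CPM in the lowest of them. In 22 groups of 5 samples examined in the same way (the 10 members and the progenitor score in each genotype), this was the only such sample. Chance gives about 1 in 20, or about 1.1 in the 22 groups, so 1 such sample is no more than chance gives.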

How the results depend on the processing

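No member, and no other Notch pathway gene, reached an adjusted p under 0.05 under any alternative, nor did any relation to the progenitor score. The smallest adjusted p of a member was 0.520 (Dll4, limma-voom with sample quality weights). Without adjustment, Notch1 reached a p under 0.05 with library size only (as did 633 of 17835 genes), without control replicate 1 (709 of 18129) and without control replicate 5 (817 of 18105). Dll4 reached it without cdKO replicate 4 (1416 of 18129), both genes did with sample quality weights (1532 of 17835), and 0 members did with DESeq2 or limma-voom. On the last 1000 exonic bases it was reached by Jag1 and Notch1 without cdKO replicate 5 (561 of 16572 genes). Without both replicates 5 it was reached there by Notch1 (425 of 16331). Over all genes, the number with an adjusted p under 0.05 was 1 with library size only, 1 without the low-count filter, 1 on the last 1000 exonic bases, 19 with DESeq2, 3 with limma-voom, 13 with its sample quality weights, and 0 to 4 with a sample left out (4 without control replicate 5 and 1 without cdKO replicate 5). On the last 1000 exonic bases it was 1 without cdKO replicate 5 and 3 without both replicates 5, settings chosen after seeing the data, as were these bases and left-out pair for the relation. DESeq2 and the fit without the filter took in 30163 genes, so their counts are not on the same base as the others. At an unadjusted p under 0.05, the 888 of 17835 genes became 1427 of 30163 with DESeq2 and 2116 of 30163 without the filter. The number was 323 with limma-voom and 1532 with weights (of 17835 each), and 578 of 13944 on the longest bin. Under the added settings it was 561 and 425. With a sample left out it was 311 to 1416, of 18073 to 18207 genes (420 without control replicate 3, 311 without control replicate 4, 1333 without cdKO replicate 2, 1416 without cdKO replicate 4, 425 without cdKO replicate 5). Without cdKO replicate 5, the split was 107 higher and 318 lower (743 and 145 over all samples), and with library size only 380 and 253. Library size only moved the median log2 difference over the whole table to -0.15 and over the members to -0.53.

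With the replicate number as a replicate block, 462 genes had an unadjusted and 0 an adjusted p under 0.05. Likeness of same-numbered samples was uneven: their deviations correlated at 0.094, -0.316, 0.165, 0.428 and 0.361 for replicates 1 to 5. Only replicates 4 and 5 were most like their own number, with a mean r of 0.0040 and -0.191 with the other numbers. Whether the numbers mark pairs cannot be told from these values.

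The log2 fold change of Dll3 turned sign with library size only (-0.11, and -0.089 in the permutation test), sample quality weights (-0.15), the progenitor score as a covariate (-0.047), the longest bin (-0.081), the last 1000 bases without both replicates 5 (-0.11), and with samples left out (-0.13 to 0.21). Jag2 turned on the longest bin (0.27). With samples left out, Notch2 ranged from -0.45 to 0.027, Hes5 from -0.35 to 0.095, Rfng from -0.54 to 0.0096 and Mfng from -0.27 to 0.14. Mfng also turned with weights (0.10) and on the last 1000 bases without cdKO replicate 5 (0.054). Notch3 turned with library size only (-0.021) and on the last 1000 bases without cdKO replicate 5 (-0.23) and without both replicates 5 (-0.046). On the last 1000 bases Spen was at 0.13 and Rbpj at 0.0055. The causes were not tested.

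Signs of r with the progenitor score were unstable. With the log2 of the summed CPM as the score, r was -0.314 for Dll1, 0.218 for Dll3, -0.125 for Jag1, 0.136 for Jag2, -0.114 for Notch1 and -0.161 for Hes1. Without Olig1 and Olig2 in the list it was -0.214 for Dll1 and -0.028 for Notch1. With cell cycle genes it was 0.600 for Dll4, 0.414 for Notch2 and 0.641 for Lfng, and with the progenitor minus neuron score 0.340, 0.438 and 0.481, and 0.526 for Hes5. With library size only, r was 0.570 for Dll4, 0.525 for Notch2, 0.518 for Lfng, 0.074 for Dll3, 0.187 for Jag2, 0.833 for Jag1, 0.664 for Dll1 and 0.624 for Notch1 (adjusted permutation p 0.067, 0.167 and 0.199 for the last 3). A pseudocount of 2 CPM gave 0.072 for Dll4 and 0.072 for Notch2. Without the 2 farthest samples r was 0.235 for Dll3 and 0.063 for Jag2. The last 1000 bases gave 0.0094 for Dll4 and 0.042 for Notch2, and without both replicates 5 r was 0.314 for Dll4, 0.173 for Notch2 and 0.194 for Lfng. With each sample left out, r ranged from -0.057 to 0.385 for Dll1, -0.438 to 0.184 for Dll3, -0.214 to 0.297 for Dll4, -0.291 to 0.175 for Notch2, -0.236 to 0.117 for Hes5, -0.360 to 0.205 for Lfng, 0.324 to 0.641 for Hes1 and 0.098 to 0.711 for Jag1.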

Other observations

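Proneural genes, which activate Delta ligands in cells leaving the progenitor state, were also measured. Of 10 listed, 8 passed the filter, and Atoh1 and Ptf1a, factors of dorsal progenitors, did not. None of the 8 had an unadjusted p under 0.05 in edgeR's test, against 4.98% of all genes, and 4 log2 fold changes were above and 4 below 0. Neurog2, the main proneural factor of MN progenitors, averaged 50.4 ± 19.4 CPM in control and 43.8 ± 16.3 CPM in cdKO samples (SD, n = 5 each). Neurod4 averaged 93.7 ± 40.1 and 83.7 ± 42.3 CPM. Neurog3, a factor of the most ventral progenitors, had 2.69 to 10.3 CPM in control samples and 3.40 to 21.5 CPM in cdKO samples, or 0.77 ± 0.49 (standard error) on the log2 scale (edgeR, adjusted p = 0.966).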
